A study of Homo sapiens with 18 samples.

Results

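U2OS cells that carried mutant DNMT3A (MUT) were compared with U2OS cells that carried the empty retroviral vector MigR1 (EV), both without cytarabine, so that the comparison describes the baseline of the mutant line. It was defined by 6 columns of the deposited count table, 3 untreated MUT and 3 untreated EV libraries, of 18 libraries in all. U2OS is an established human osteosarcoma line. The series title asks how the mutant line responds to cytarabine, a cytidine analogue that halts replication once it is built into DNA, and it also holds cells with wild-type DNMT3A (WT) and libraries of all 3 lines taken 24 h after 10 µM cytarabine. The mutation is given as R882C in the series text but as R882H in the labels of the samples, and the line is therefore called only mutant below. The labels call the control cells untreated and the series text calls them a vehicle control. All groups share the U2OS background with its own DNMT3A alleles, and the MUT and WT lines carry the introduced gene on top of them. Replicates were separate platings of 1 line for each construct, so differences between lines that arose while the lines were made cannot be told apart from effects of the construct. Whether a line was a clone or a pool is not given in the sources used here.

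DNMT3A is one of the enzymes that place new methyl groups on cytosines in CpG dinucleotides, together with its relative DNMT3B, while DNMT1 copies existing methylation after replication. Methylation of a promoter rich in CpG usually goes with silence of the gene. The arginine named in the labels lies in the catalytic domain, and changes there are recurrent in acute myeloid leukaemia and are known to lower the activity of the enzyme and to disturb its assembly with the normal protein. The genes that depend on promoter methylation for their silence are chiefly germline genes, such as CTCFL. No methylation was measured here, so all results concern RNA levels.

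Sequences around the start sites of 4 genes with large differences are shown because DNMT3A acts on CpG. They are 300 bases from RefSeq, build GRCh38.p14, read 5′ to 3′ along the gene. They hold 250 bases before and 50 after the start nearest to the 5′ end of the gene in the authors' table. Capitals mark the dinucleotide CG. KRT75 has 8 (chr12:52434322-52434621, minus strand). It rose most after DNMT3A among genes of at least the abundance used for naming whose MUT and EV libraries did not overlap. CTCFL, which fell most among such genes, has 2 at the start nearest to the 5′ end of the gene (chr20:57525603-57525902, minus strand) and 19 at the richest of its 3 listed starts (chr20:57524648-57524947, minus strand). DDR2, another large fall, has none (chr1:162630613-162630912, plus strand), and GATA6, a developmental regulator, has 25 (chr18:22169339-22169638, plus strand).
KRT75: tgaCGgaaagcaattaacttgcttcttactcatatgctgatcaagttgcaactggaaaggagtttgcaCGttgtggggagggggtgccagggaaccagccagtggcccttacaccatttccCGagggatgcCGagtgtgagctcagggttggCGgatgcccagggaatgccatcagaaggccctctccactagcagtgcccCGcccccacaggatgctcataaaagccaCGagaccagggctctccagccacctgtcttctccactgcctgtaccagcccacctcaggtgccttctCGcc
CTCFL: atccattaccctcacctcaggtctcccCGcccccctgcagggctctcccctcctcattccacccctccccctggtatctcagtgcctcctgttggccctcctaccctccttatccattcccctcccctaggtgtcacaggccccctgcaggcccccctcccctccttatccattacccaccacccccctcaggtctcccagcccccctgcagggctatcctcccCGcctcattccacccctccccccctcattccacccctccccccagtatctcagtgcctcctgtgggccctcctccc
CTCFL richest start: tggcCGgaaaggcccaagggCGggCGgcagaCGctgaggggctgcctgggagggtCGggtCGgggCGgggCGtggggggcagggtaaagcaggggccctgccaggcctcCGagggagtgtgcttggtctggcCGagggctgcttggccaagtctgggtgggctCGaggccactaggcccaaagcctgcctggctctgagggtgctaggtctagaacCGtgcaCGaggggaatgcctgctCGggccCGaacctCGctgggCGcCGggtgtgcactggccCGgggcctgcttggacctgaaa
DDR2: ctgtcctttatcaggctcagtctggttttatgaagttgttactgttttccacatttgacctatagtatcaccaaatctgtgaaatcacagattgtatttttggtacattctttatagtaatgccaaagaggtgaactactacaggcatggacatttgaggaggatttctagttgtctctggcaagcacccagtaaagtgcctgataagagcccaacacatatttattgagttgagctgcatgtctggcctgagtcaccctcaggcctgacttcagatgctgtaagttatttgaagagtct
GATA6: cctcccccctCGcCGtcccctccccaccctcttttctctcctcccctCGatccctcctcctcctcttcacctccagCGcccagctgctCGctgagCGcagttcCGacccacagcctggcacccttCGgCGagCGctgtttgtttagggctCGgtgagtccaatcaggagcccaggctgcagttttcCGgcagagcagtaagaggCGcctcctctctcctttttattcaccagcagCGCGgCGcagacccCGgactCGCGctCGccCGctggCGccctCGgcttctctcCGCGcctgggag

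The motif CG, which reads the same on both strands, was present in 96% of the 35116 start regions of this length in the table. Among tested genes with such a region the median number was 26, with 27 among genes higher in MUT and 26 among genes lower in MUT. Genes that differed by at least 1 on the log2 scale had fewer. The median was 10 for the 68 of 189 higher genes with a region and 17 for the 177 of 287 lower genes with one. Among the genes shown, GATA6 with 25 and DDR2 with none both fell. These counts describe the letters only and say nothing on methylation in the cells.

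The libraries held 17.1 to 21.4 M estimated counts. Untreated MUT libraries resembled each other less than those of any other group. Their biological coefficient of variation was 0.215, against 0.0397 in untreated EV, and a chi-square comparison of 2 replicates gave 22 to 48.2 for each degree of freedom, against 2.46 to 3.59. Untreated MUT replicate 3 stood apart by gene length. Relative to the EV mean, genes with under 1 kb of exons were higher in it by a median of 0.51 on the log2 scale. Genes over 8 kb were lower, at -0.19, whereas the other 5 libraries stayed between -0.05 and 0.07 in every length class. Each untreated EV library was set against the mean of the other untreated EV libraries. Untreated MUT replicate 2 had 4.47% of its counts on mitochondrial genes, against 2.70 to 2.73% in the other MUT libraries and 3.16 to 3.6% in EV. Processed pseudogenes took 2.29 to 2.63% of the counts in MUT and 2.01 to 2.11% in EV.

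**Figure D1:**
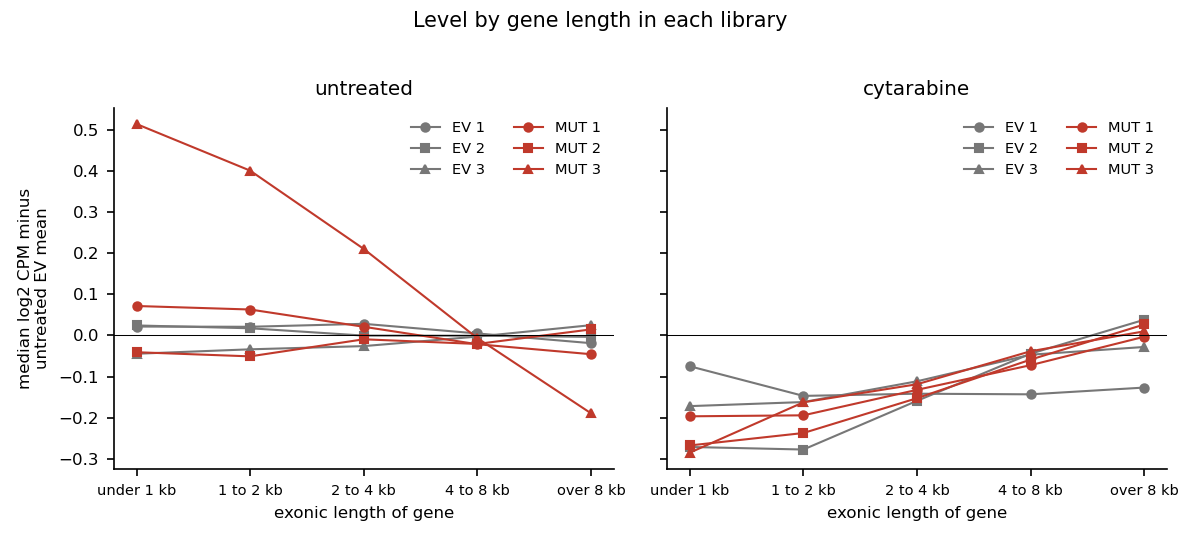
Median log2 CPM of genes minus the untreated EV mean (vertical axis, log2 units) in 5 classes of exonic length (horizontal axis), 1 line for each EV (grey) and MUT (red) library, untreated on the left and with cytarabine on the right. Each untreated EV library is set against the mean of the other untreated EV libraries instead. Untreated MUT replicate 3 runs from 0.51 for genes under 1 kb to -0.19 for genes over 8 kb. The other untreated libraries stay near 0.

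DNMT3A itself was examined first, as a check of the labels (chromosome 2, 25227855 to 25342591, minus strand). Untreated EV libraries held 26.9, 27.5 and 26.2 counts per M counts of the scaled library (CPM) and untreated MUT libraries 499.7, 615 and 254 CPM in replicates 1, 2 and 3. Every MUT library lay far above every EV library, and replicate 3 held less than the other MUT libraries. The log2 fold change was 4.09 (SE 0.209, n = 3 against 3, adjusted p 2.1e-10 in edgeR's quasi-likelihood test with Benjamini-Hochberg adjustment, used for all adjusted p-values below). That test estimates the spread over all 18 libraries, and in the fit of the 6 libraries alone it gave an adjusted p of 7.2e-04. The table gives 1 value for the gene, so introduced and own transcripts are not separated. The other enzymes of the pathway moved little. DNMT3B was higher by 0.31 (SE 0.0857, adjusted p 0.014), but its libraries overlapped, and without EV replicate 1, EV replicate 2 or MUT replicate 1 it missed the threshold, with values from 0.25 to 0.43 over the fits that left out 1 library. DNMT1 held 271, 276 and 279 CPM in EV and 278, 271 and 213 CPM in MUT, an overlapping range (log2 fold change -0.12, SE 0.0759, adjusted p 0.30). Among 23 tested genes of methylation writers, readers and erasers, 3 were higher and 2 lower. These calls were 21.7% of the list, close to the 19.9% over all tested genes, and they include DNMT3A itself and DNMT3B. The other 3 called genes were readers. MBD3, a subunit of the NuRD chromatin complex, was higher by 0.51, MBD1, which binds methylated CpG, fell by 0.43, and ZBTB33, which also binds methylated DNA, fell by 0.31 but missed the threshold without EV replicate 3 (-0.24) or MUT replicate 3 (-0.25). In the fits without 1 library this list had 2 (EV replicate 1) to 6 (MUT replicate 3) higher genes, with 5 without MUT replicate 2, and 1 (EV replicate 3 or MUT replicate 3) to 4 (MUT replicate 2) lower genes.

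Of 18226 tested genes, 3632 (19.9%) differed between untreated MUT and untreated EV, 1801 higher in MUT (9.88%) and 1831 lower (10.0%). Most differences were small. The median log2 fold change was 0.40 among the higher genes and -0.47 among the lower ones, and 476 genes (2.61%) differed by at least 1, 189 of them higher and 287 lower. The 3 MUT libraries did not overlap with the 3 EV libraries for 1655 of the higher and 1763 of the lower genes, and for 30.4% of all tested genes. A gene called here differed in 1806 cases (49.7%) in every fit that left out 1 of the 6 libraries. Without EV replicate 3 the number of called genes was 2253, and a fit of the 6 libraries alone called 935. With an offset for gene length in each library, 3064 of the 3472 called genes with a known length were called in the same direction.

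**Figure D2:**
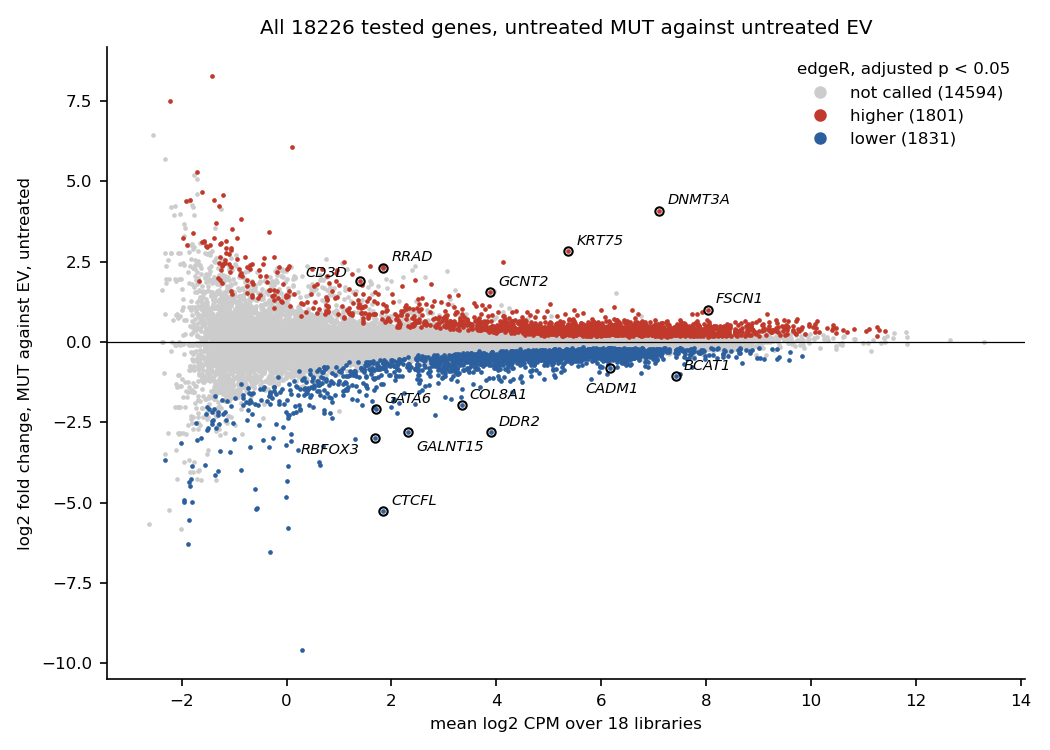
Log2 fold change of untreated MUT against untreated EV (vertical axis) by mean log2 CPM over 18 libraries (horizontal axis) for 18226 tested genes, with the 1801 genes called higher in red, the 1831 called lower in blue and 14 genes named in the text circled. DNMT3A and KRT75 lie above the bulk of genes of their abundance, and CTCFL, RBFOX3, GALNT15 and DDR2 below it.

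The cytarabine libraries give the same comparison of lines in cultures that the untreated comparison does not use. There 2548 genes (14.0%) differed between MUT and EV, 1249 higher (6.85%) and 1299 lower (7.13%). Of the 1801 genes higher in untreated MUT, 1508 (83.7%) lay above 0 in the treated comparison, 556 were called higher and 5 lower. Of the 1831 lower genes, 1610 (87.9%) lay below 0, 744 were called lower and 11 higher. The median change was smaller in the treated libraries, 0.18 for the higher and -0.26 for the lower genes. The genes were selected by their untreated values, which favours large untreated changes. These medians therefore cannot show whether cytarabine altered the difference between the lines. The difference between the treated and the untreated comparison was itself past the threshold for 39 genes (0.214%).

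Among the 12 largest rises at a mean log2 CPM of at least 1, KRT75 came after DNMT3A. It encodes a hair follicle keratin (chromosome 12, 52424070 to 52434526, minus strand). Untreated EV libraries held 17.6, 13.9 and 14.1 CPM and untreated MUT libraries 97.7, 117 and 110.1 CPM. The groups were far apart, at 2.83 on the log2 scale (SE 0.124, adjusted p 3.8e-11), and in the treated libraries the value was 2.38. RRAD, a small GTPase that restrains calcium channels, held 1.40, 1.75 and 1.84 CPM in EV and 7.77, 6.6 and 10.5 CPM in MUT. It rose by 2.31 (SE 0.190, adjusted p 1.5e-07), and by 0.55 in the treated libraries. GCNT2, the enzyme that branches the chains of the I blood group antigen, held 8.47, 10.0 and 8.79 CPM in EV against 25.5, 28.3 and 25.8 CPM in MUT. All MUT libraries of these genes lay above all EV libraries, which the rule for naming required. The log2 fold change of GCNT2 was 1.54 (SE 0.108, adjusted p 2.4e-08). SCARF1, a scavenger receptor, rose by 1.49 (SE 0.219, adjusted p 1.2e-04) and CD3D, a subunit of the T-cell receptor complex, by 1.89 (SE 0.319, adjusted p 4.2e-04), the latter from 0.584 to 0.984 CPM in EV to 2.16 to 3.88 CPM in MUT. The long noncoding RNA AL137026.1 rose by 1.75 (SE 0.177). Of the abundant genes, FSCN1, which bundles actin filaments, rose by 1.01 (SE 0.0863, adjusted p 2.5e-07), from 154, 161 and 164 CPM to 294, 327 and 343 CPM. KRT75, RRAD, CD3D, GCNT2, SCARF1, AL137026.1 and FSCN1 were called in every fit that left out 1 library.

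The other named rises were short RNAs or pseudogenes. BCYRN1, a short RNA derived from an Alu repeat, held 11.2, 12.2 and 8.30 CPM in EV and 41.6, 117 and 19.9 CPM in MUT, so that replicate 2 held most of the rise. The processed pseudogenes RPS11P5, RPL32P29, RPL5P1, EEF1A1P6, RPS27AP16 and AC099560.2 were likewise highest in MUT replicate 2, where RPS11P5 had 30.1 CPM against 12.1 and 5.88 CPM in the other MUT libraries. Without that library the log2 fold changes of BCYRN1, RPS11P5, AC099560.2, RPL5P1 and EEF1A1P6 were 1.57, 1.14, 1.24, 0.95 and 0.66, and none of these 5 passed the threshold. Leaving out EV replicate 3 also ended all 5 calls, and leaving out EV replicate 1 or EV replicate 2 ended those of RPS11P5, AC099560.2 and RPL5P1. RPS11P5 was lost without MUT replicate 1 as well, and its values ran from 1.14 to 2.35 over these fits. In the treated libraries none of these 7 genes was called. Reads of such pseudogenes can be shared with the parent gene, and how the authors placed them is not given in the sources used here. Over all 1022 tested processed pseudogenes, 125 were higher and 19 lower with a median of 0.42, against 12 higher and 14 lower with a median of -0.15 in the treated libraries.

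CTCFL fell more than any other gene of at least this abundance. It encodes BORIS, the germline relative of the insulator protein CTCF (chromosome 20, 57495966 to 57525653, minus strand). EV libraries held 20.5, 20.9 and 19.5 CPM and MUT libraries 0.752, 0.440 and 0.343 CPM. The RNA was close to lost in every MUT library, at -5.26 on the log2 scale (SE 0.236, adjusted p 3.8e-11), and at -4.71 in the treated libraries. RBFOX3, the neuronal splicing factor detected by NeuN antibodies, held 10.4, 8.88 and 11.1 CPM in EV and 1.71, 1.07 and 1.03 CPM in MUT. It fell by 2.97 (SE 0.243, adjusted p 1.5e-07). GALNT15, an enzyme that starts O-linked glycans, fell from 9.76, 9.35 and 9.04 CPM to 1.10, 1.64 and 1.31 CPM (log2 fold change -2.80, SE 0.195, adjusted p 2.3e-08). The groups did not overlap for any of these genes, which the rule for naming required.

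Among the other large falls, DDR2, a receptor tyrosine kinase that binds fibrillar collagen, held 25.7, 27.1 and 32.1 CPM in EV and 3.96, 4.28 and 4.0 CPM in MUT. The MUT libraries lay close together and far below the EV libraries, with a difference of -2.79 on the log2 scale (SE 0.132, adjusted p 7.1e-11). COL8A1, a short-chain collagen, held 20.6, 20.2 and 23.2 CPM in EV and 5.57, 6.16 and 4.57 CPM in MUT (log2 fold change -1.97, SE 0.132, adjusted p 1.5e-08). The fall of COL8A1 was as large in the treated libraries (-2.06), while that of DDR2 was smaller (-1.25). GATA6, a zinc finger regulator of endoderm and heart development, fell from 3.91, 5.26 and 4.67 CPM to 0.903, 1.13 and 1.20 CPM (log2 fold change -2.10, SE 0.215, adjusted p 2.6e-06). Log2 fold changes of -3.03 to -1.96 were seen for SYTL5, an effector of vesicle transport, TMEM179, CPED1, LINC00665, LINC01694 and the pseudogene GOLGA8IP, which belongs to a multigene family and is uncertain for that reason. All 12 of these falls were called in every fit that left out 1 library and in the treated libraries.

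**Figure D3:**
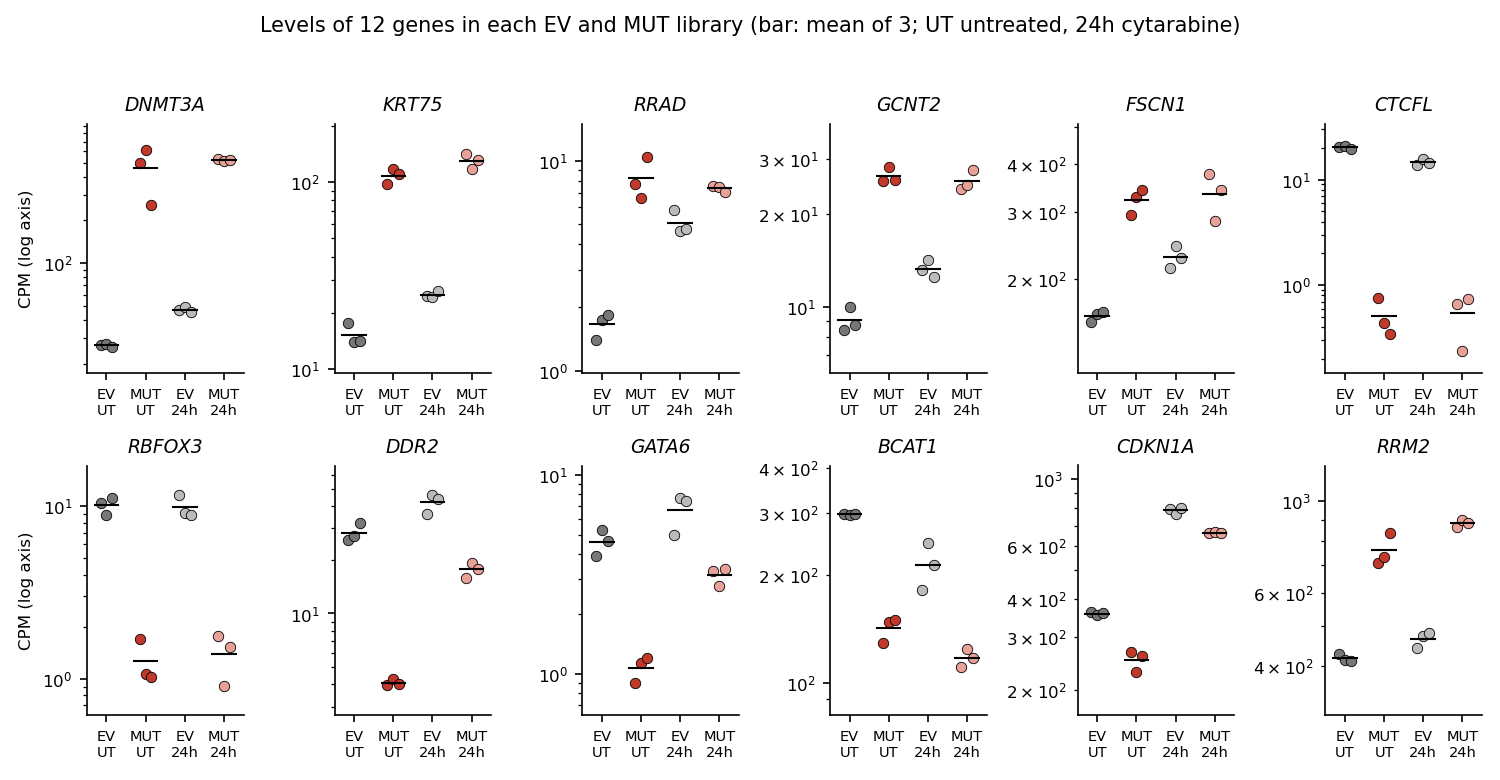
CPM on a log axis, with its own range in each panel, for 12 genes in the EV (grey) and MUT (red) libraries, untreated (UT) and 24 h after cytarabine, with 1 point for each library and a bar at the mean of 3. The untreated MUT and EV points do not overlap in any panel, which the rule for naming required of all genes shown except CDKN1A and RRM2. DNMT3A ranges from 254 to 615 CPM in untreated MUT, and CTCFL stays below 1 CPM in all 6 MUT libraries.

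Abundant genes fell by less. BCAT1, the cytosolic aminotransferase of branched-chain amino acids, held 298, 295 and 297 CPM in EV and 129.5, 148 and 150.3 CPM in MUT (log2 fold change -1.06, SE 0.0862, adjusted p 1.5e-07). The groups were far apart. TM7SF3, a membrane protein with 7 spanning segments, fell by 1.00 (SE 0.0666). Both genes lie in one 10 Mb window of chromosome 12, described with the other windows below. CADM1, a cell adhesion molecule, fell by 0.81 (SE 0.0665) and the noncoding RNA AL161431.1 by 0.99 (SE 0.0802). These 4 falls were called in the treated libraries too, at -0.48 to -0.86.

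The WT line gives a further comparison for the largest changes. Both comparisons with EV use the same EV libraries, so the direct test of MUT against WT is given, in which 3872 genes (21.2%) differed, 2134 higher in MUT (11.7%) and 1738 lower (9.54%). In WT against EV 2125 genes (11.7%) differed. DNMT3A itself was higher in WT than in EV by 2.31 and higher in MUT than in WT by 1.77 (SE 0.185, adjusted p 2.0e-06), with 131, 129 and 139 CPM in WT, so the level of the introduced gene differed between the lines. The rises of RRAD, GCNT2, CD3D and KRT75 were larger in MUT than in WT. They exceeded WT by 2.6, 1.75, 1.77 and 1.94, all past the threshold, and WT against EV gave -0.29, -0.21, 0.12 and 0.90. SCARF1 and AL137026.1 exceeded WT by 2.99 and 3.03, past the threshold, and WT against EV gave -1.50 and -1.28. FSCN1, in contrast, was higher in WT than in EV as well, by 0.77 (SE 0.0861, adjusted p 5.0e-06). Its difference between MUT and WT missed the threshold, at 0.24 (SE 0.0851, adjusted p 0.051). CTCFL was lower in MUT than in WT by 3.33 (adjusted p 2.4e-08), although it was lower in WT than in EV as well, at -1.94. DDR2, GALNT15, COL8A1 and GATA6 were also lower in WT than in EV, by 2.12, 1.90, 1.38 and 1.01, and MUT lay below WT by 0.67, 0.90, 0.60 and 1.09, each past the threshold. For RBFOX3, LINC01694, LINC00665, TMEM179 and SYTL5 the difference between MUT and WT missed the threshold, at -0.72 (SE 0.266), 0.79 (SE 0.410), -0.23 (SE 0.312), -0.59 (SE 0.241) and -0.23 (SE 0.319).

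Gene lists were counted against the shares over all tested genes. The members and lists were chosen with earlier results of these data known, so their counts are descriptions. The median over all tested genes was -0.0030.

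**Figure D4:**
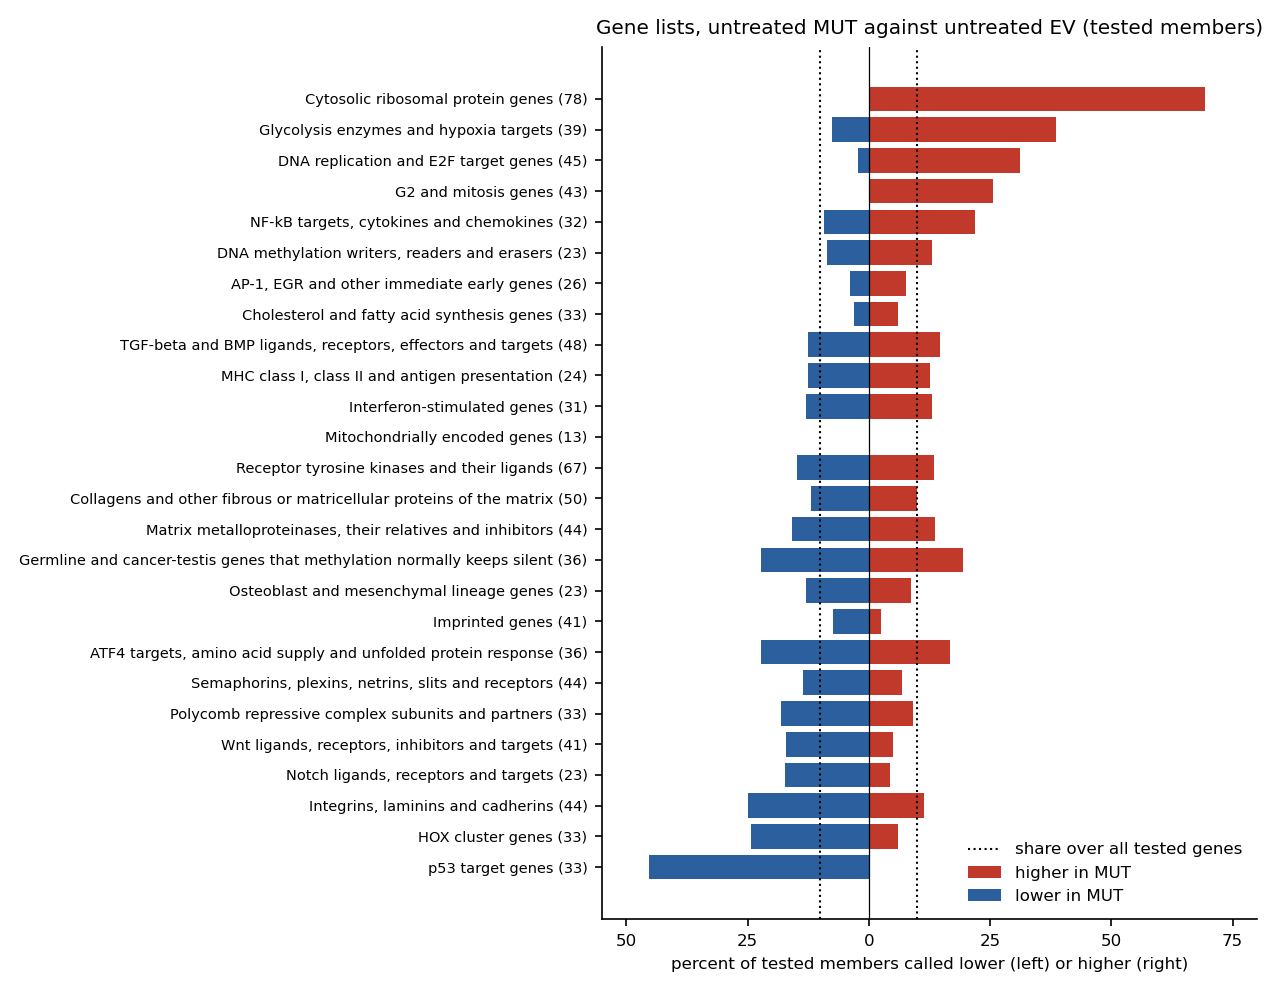
Percent of tested members called higher (red, right) and lower (blue, left) in untreated MUT against untreated EV for 26 gene lists, with the number tested in brackets and dotted lines at the shares over all tested genes, 9.88% higher and 10.0% lower. Ribosomal protein genes reach furthest to the right (54 of 78) and p53 targets furthest to the left (15 of 33).

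p53 is the tumour suppressor that halts the cell cycle and promotes repair or death after DNA damage. Of 33 tested target genes 15 fell, 0 rose and 18 were not called, with a median of -0.17 and 9 members above 0. DESeq2 called 15 lower and 1 higher, and at an unadjusted p under 0.05 edgeR's test gave 17 lower and 2 higher. In the single MUT libraries the median difference from the EV mean was -0.19, -0.32 and -0.23. CDKN1A, the inhibitor of cyclin-dependent kinases, held 362, 354 and 359.6 CPM in EV and 268, 229 and 259.7 CPM in MUT. The groups did not overlap, and the log2 fold change was -0.51 (SE 0.0605, adjusted p 1.5e-05). The largest falls of the list were those of BTG2, which slows proliferation (-0.55, SE 0.0693), EDA2R, a receptor of the tumour necrosis factor family (-0.54, SE 0.0881), TIGAR, which lowers glycolytic flux (-0.53, SE 0.0992), and RRM2B, the ribonucleotide reductase subunit that p53 induces (-0.51, SE 0.0655). XPC, which recognises damaged DNA, fell by 0.50. Between 11 and 14 members fell in the fits that left out 1 library and 0 to 2 rose (2 without MUT replicate 2, 1 without MUT replicate 1 or 3), and 7 fell in the fit of 6 libraries. With cytarabine 7 members were lower and 2 higher, with a median of -0.05. Against WT 12 were lower and 1 higher in untreated MUT.

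Genes of DNA replication and targets of E2F act at entry into and passage through S phase. Of 45 members 14 rose and 1 fell, with a median of 0.12. RRM2, the S-phase subunit of ribonucleotide reductase, held 427, 415 and 413 CPM in EV and 707, 734 and 839 CPM in MUT, without overlap (log2 fold change 0.86, SE 0.0644, adjusted p 5.4e-08). TYMS, which makes thymidylate, rose by 0.59 (SE 0.0906), LIG1, which seals nicks in new strands, by 0.44 (SE 0.0673), and CCNE1, a cyclin of the S-phase entry, by 0.41 (SE 0.0648). These 4 genes rose by similar amounts in the treated libraries, at 0.92, 0.61, 0.47 and 0.41, where 23 members of the list were higher and 0 lower. Without MUT replicate 2, 22 members rose in the untreated comparison, without any other 1 library 12 to 16 rose and 1 or 2 fell (2 without MUT replicate 1 or 3), and the fit of 6 libraries called 5. TYMS did not differ detectably between MUT and WT (0.01, SE 0.0900), whereas RRM2 exceeded WT by 0.69 (SE 0.0641).

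G2 and mitosis genes gave 11 rises and 0 falls of 43, with a median of 0.10. CCNB1, the cyclin that starts mitosis, held 248, 250.5 and 234 CPM in EV and 348, 356 and 361 CPM in MUT (0.54, SE 0.0681, adjusted p 2.5e-05). SPC25, a kinetochore protein, rose by 0.57 (SE 0.0984). DESeq2 called 13 higher and 0 lower, and at an unadjusted p under 0.05 edgeR's test gave 17 higher and 3 lower. Without EV replicate 1 or EV replicate 3 the number of rises was 7 and 6, without MUT replicate 2 it was 15 with 2 falls, without MUT replicate 3 there was 1 fall, and in the fit of 6 libraries it was 2. In the treated libraries 4 members were higher and 3 lower, and CCNB1 stood at 0.01.

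Cytosolic ribosomal protein genes showed the largest share of calls. Of 78 tested members 54 rose and 0 fell, and 76 lay above 0, with a median of 0.42. RPS23 held 895, 877 and 766 CPM in EV and 1377, 1344 and 1398 CPM in MUT, a rise of 0.70 (SE 0.0988, adjusted p 8.8e-05) without overlap. RPS7 and RPL11 rose by 0.70 and 0.69. At the other end, RPLP2 stood at -0.11 (SE 0.112, adjusted p 0.55). The rise was uneven among the MUT libraries, with medians of 0.21, 0.29 and 0.65 in replicates 1, 2 and 3, so it was largest in the library whose short genes were high. At an unadjusted p under 0.05 edgeR's test gave 66 higher and 0 lower, and DESeq2 called 63 higher and 0 lower. Without MUT replicate 3, 49 members rose and 1 fell, with a median of 0.29, and with an offset for gene length in each library 57 rose and 1 fell, with a median of 0.37. The length used was that of all annotated exons, a median of 3208 bases for these genes, which exceeds that of their messenger RNAs. In the fit of 6 libraries 23 members rose. In the treated libraries 5 rose and 0 fell, with a median of 0.10. Many processed pseudogenes copy ribosomal protein genes and their reads may be shared; without processed pseudogenes in the fit, 60 members rose.

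Glycolysis enzymes and hypoxia targets gave 15 rises and 3 falls of 39, with a median of 0.17. BNIP3, a mitophagy receptor induced by hypoxia, rose by 0.61 (SE 0.103, adjusted p 4.0e-04) and P4HA2, a collagen prolyl hydroxylase, by 0.57 (SE 0.0659, adjusted p 1.0e-05). P4HA2 held 82.8, 79.5 and 84.1 CPM in EV and 124, 114 and 128 CPM in MUT. The glycolytic enzymes ENO1 and ALDOA rose by 0.39 and 0.47. For all 4 genes the untreated groups did not overlap. Without EV replicate 3, 9 members rose and 1 fell, without MUT replicate 3, 14 rose and 1 fell, without EV replicate 2 or MUT replicate 2 there were 2 falls, and the fit of 6 libraries called 3. In the treated libraries 1 member was higher and 4 were lower, with a median of -0.04.

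HOX genes, which specify position along the body axis and are silenced by Polycomb complexes, gave 2 rises and 8 falls of 33 and a median of -0.27. In the fits without 1 library 7 to 11 fell and 0 (EV replicate 2) to 2 rose, with 1 rise without EV replicate 1, EV replicate 3 or MUT replicate 3. The median was -0.16 without EV replicate 3, -0.14 without MUT replicate 2 and -0.38 without MUT replicate 1. The single MUT libraries had medians of -0.11, -0.57 and -0.13. HOXC8 held 14.8, 15.3 and 14.7 CPM in EV and 8.83, 6.86 and 6.80 CPM in MUT (-0.99, SE 0.121, adjusted p 1.9e-05). HOXC11 fell by 1.05 (SE 0.146) and HOXA11 by 0.76 (SE 0.156), again without overlap of the groups. Below the abundance used for naming, and picked out after their values were seen, HOXD10 and HOXD11 held 2.51 to 2.89 and 3.81 to 5.14 CPM in EV but at most 0.343 and 0.514 CPM in MUT. The 2 rises of the list, HOXD8 and HOXD9, belong to the same cluster. Over the fits without 1 library their values ran from 0.25 to 0.50 and from 0.37 to 0.57. HOXD8 missed the threshold without any 1 EV library or MUT replicate 3, and HOXD9 without EV replicate 2. HOX clusters hold antisense transcripts, and it is not known whether strand was used in counting, which is not given in the sources used here. In the treated libraries 2 members were higher and 4 lower. Polycomb subunits and partners gave 3 rises and 6 falls of 33, the largest being the fall of RNF2, a ubiquitin ligase of the first complex, by 0.42. In the fits without 1 library the Polycomb falls numbered 3 (EV replicate 2, EV replicate 3 or MUT replicate 3) to 5. The rises numbered 0 without EV replicate 2, 1 without EV replicate 1 or 3, 3 without MUT replicate 1, 6 without MUT replicate 2 and 5 without MUT replicate 3.

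Germline and cancer-testis genes gave calls in both directions. Of 36 tested members 7 rose and 8 fell, each more than the share over all genes, with a median of -0.07. Besides CTCFL, SPANXB1, a sperm nuclear protein of the X chromosome with close paralogs, held 49.5, 59.6 and 57.9 CPM in EV and 27.9, 30.8 and 32.2 CPM in MUT (-0.88, SE 0.0911, adjusted p 3.1e-06). CTAG2, a cancer-testis antigen, went the other way, with 25.2, 28.3 and 26.1 CPM in EV and 45.5, 44.7 and 65.4 CPM in MUT (0.97, SE 0.132, adjusted p 6.1e-05). The groups overlapped for none of the 3. STK31, a testis kinase, rose by 1.13 (SE 0.201), and it missed the threshold in the fit of 6 libraries (adjusted p 0.0531). Without EV replicate 1 or EV replicate 3 the list had 4 rises, without MUT replicate 2 it had 9 rises and 5 falls with a median of 0.016, without MUT replicate 3 it had 11 falls with a median of -0.16, and with the length offset 13 falls with a median of -0.19. Imprinted genes gave 1 rise and 3 falls of 41, below the shares over all genes. Without 1 library their rises ran from 0 (EV replicate 3) to 4 (MUT replicate 2), with 2 without EV replicate 2, MUT replicate 1 or MUT replicate 3. Their falls ran from 1 (EV replicate 2, EV replicate 3 or MUT replicate 2) to 4 (MUT replicate 1), with 2 without MUT replicate 3.

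Integrins, laminins and cadherins, which attach cells to the matrix and to each other, gave 5 rises and 11 falls of 44 and a median of -0.13, with falls of CDH13, an anchored cadherin (-0.94, SE 0.131), and LAMC3, a laminin chain (-0.69, SE 0.0986). Without EV replicate 2 or EV replicate 3 the falls numbered 7 and 6, and the rises 2 without EV replicate 1, 2 or 3 or MUT replicate 1. Without MUT replicate 3 there were 7 rises and 8 falls with a median of -0.03. Collagens and other matrix proteins gave 5 rises and 6 falls of 50, with 10 falls without MUT replicate 1, 4 falls without EV replicate 3, and 8 and 9 rises without MUT replicates 2 and 3. Metalloproteinases and their relatives gave 6 rises and 7 falls of 44, with 4 falls without EV replicate 3 or MUT replicate 2, and 4 (any EV library) to 9 (MUT replicate 3) rises. Of these proteases ADAMTS1, a proteoglycan protease, rose by 0.92 (SE 0.137) and the collagenase MMP13 fell by 1.64 (SE 0.253), from 4.50, 3.68 and 2.83 CPM to 1.3, 1.13 and 1.09 CPM. Genes of TGF-beta and BMP signalling gave 7 rises and 6 falls of 48, with 3 falls without EV replicate 1 and otherwise 4 to 7 falls and 5 to 10 rises without 1 library. The ligand BMP6 held 7.30, 5.32 and 7.07 CPM in EV and 14.1, 13.1 and 11.4 CPM in MUT (0.97, SE 0.127), and its target ID4 rose by 0.54. The co-receptor ENG fell from 33.9, 26.9 and 30.5 CPM to 13.8, 14.2 and 13.8 CPM (-1.13, SE 0.114, adjusted p 2.2e-06). All MUT libraries lay above all EV libraries for BMP6 and below them for ENG.

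NRP1, which binds semaphorins and VEGF, held 30.3, 30.0 and 31.1 CPM in EV and 15, 17.9 and 13.9 CPM in MUT (-0.97, SE 0.0896, adjusted p 7.3e-07). MET, the receptor of hepatocyte growth factor, fell by 0.56 (SE 0.0947). Over the lists, receptor tyrosine kinases and their ligands gave 9 rises and 10 falls of 67 and guidance genes 3 rises and 6 falls of 44, with 1 rise without EV replicate 1, 2 rises without EV replicate 2 or MUT replicate 1, and 7 rises without MUT replicate 3. Without 1 library the growth factor list had 6 to 12 rises and 7 to 10 falls. Wnt genes gave 2 rises and 7 falls of 41, led by the receptor FZD9 (-1.12, SE 0.249), and Notch genes 1 rise and 4 falls of 23, with DTX1, a regulator of Notch, at -0.92 and the target HEY1 at 0.67. Without 1 library the Wnt rises ran from 1 (EV replicate 1, EV replicate 2 or MUT replicate 2) to 4 (MUT replicate 3) and the falls from 5 to 9. The Notch rises numbered 2 without any 1 MUT library, and the falls ran from 3 to 6. Cytokine and NF-kB genes gave 7 rises and 3 falls of 32. IL24, a cytokine of the IL-10 family, held 9.35, 8.35 and 7.93 CPM in EV and 16.8, 16.4 and 19.5 CPM in MUT (1.04, SE 0.104, adjusted p 2.0e-06), whereas the chemokine CCL2 fell by 0.94 (SE 0.199). The NF-kB rises numbered 3 without EV replicate 1 or EV replicate 3 and 4 without EV replicate 2 or MUT replicate 3, and 9 without MUT replicate 2. The falls numbered 1 without EV replicate 2, EV replicate 3 or MUT replicate 2 and 2 without EV replicate 1 or MUT replicate 3. Osteoblast and mesenchymal lineage genes gave 2 rises and 3 falls of 23. The falls numbered 0 without EV replicate 1, 1 without EV replicate 2 or MUT replicate 1, and 2 without EV replicate 3 or MUT replicate 2. The rises numbered 1 without any 1 EV library and 4 without MUT replicate 2. TNFRSF11B, the decoy receptor that restrains osteoclast formation, held 31.0, 28.8 and 32.1 CPM in EV and 55.9, 45.6 and 58.5 CPM in MUT, a rise of 0.80 (SE 0.0877, adjusted p 5.5e-06) without overlap.

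ATF4 targets and genes of amino acid supply gave 6 rises and 8 falls of 36 and split by gene. ASNS, asparagine synthetase, rose by 0.59 (SE 0.0817) and AARS, the alanine tRNA ligase, fell by 0.77 (SE 0.0713), from 271, 268 and 277 CPM to 158, 181 and 142 CPM. With DESeq2 size factors in edgeR the falls of this list numbered 3, and without single libraries the falls were 3 (EV replicate 2), 4 (MUT replicate 1), 5 (EV replicate 1, EV replicate 3 or MUT replicate 2) or 10 (MUT replicate 3) and the rises ran from 3 (EV replicate 3) to 10 (MUT replicate 2). AARS lies on chromosome 16 between 70 and 80 Mb, the window with the lowest median described below. Interferon-stimulated genes gave 4 rises and 4 falls of 31, MHC and antigen presentation genes 3 and 3 of 24, immediate early genes 2 and 1 of 26, and sterol and fatty acid synthesis genes 2 and 1 of 33. Counts this small moved with single libraries. Sterol genes gave 0 and 0 without EV replicate 3, 1 and 1 without EV replicate 1 or 2, 3 and 0 without MUT replicate 1, 5 and 5 without MUT replicate 2 and 3 and 1 without MUT replicate 3. MHC rises numbered 1 without EV replicate 2 or 3 and 5 without MUT replicate 2, with 2 to 4 falls. Interferon rises numbered 1 without EV replicate 3 and 3 to 5 without any other 1 library, with 3 to 5 falls. Immediate early genes gave 1 rise without any 1 library except MUT replicate 3, and 3 and 2 falls without MUT replicates 1 and 3. None of the 13 mitochondrially encoded genes was called by edgeR or DESeq2 or had an unadjusted p under 0.05, although without MUT replicate 2 edgeR called 3 lower and without MUT replicate 3 it called 1 higher, and their medians in the MUT libraries ran from -0.29 to 0.47.

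Differences also lay together along chromosomes. U2OS is an aneuploid line. There were 278 windows of 10 Mb with at least 20 tested genes, and the interquartile range of their median log2 fold changes ran from -0.08 to 0.08. On chromosome 16 between 70 and 80 Mb, 41 of 72 genes were lower and 0 higher, with a median of -0.60. The median was -0.52, -0.56 and -0.66 in the 3 MUT libraries, so that they stood together, and -0.57 in the treated comparison. At an unadjusted p under 0.05 edgeR's test gave 52 lower and 1 higher in this window. The next lowest windows were chromosome 7 between 110 and 120 Mb (13 lower and 0 higher of 27, median -0.49) and chromosome 12 between 20 and 30 Mb (23 lower and 0 higher of 50, median -0.45), which holds BCAT1 and TM7SF3. The window on chromosome 7 was uneven, with medians of -0.41, -0.60 and -0.13 in the 3 MUT libraries. On chromosome 2 between 20 and 30 Mb, where DNMT3A lies, 40 of 94 genes were higher and 1 lower, with a median of 0.31. Chromosome 19 between 0 and 10 Mb gave 102 higher and 3 lower of 256 (median 0.29) and chromosome 2 between 180 and 190 Mb 8 higher and 1 lower of 29 (median 0.29). In WT against EV, which shares the EV libraries, the medians of the 3 lowest windows were -0.23, -0.24 and -0.12.

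**Figure D5:**
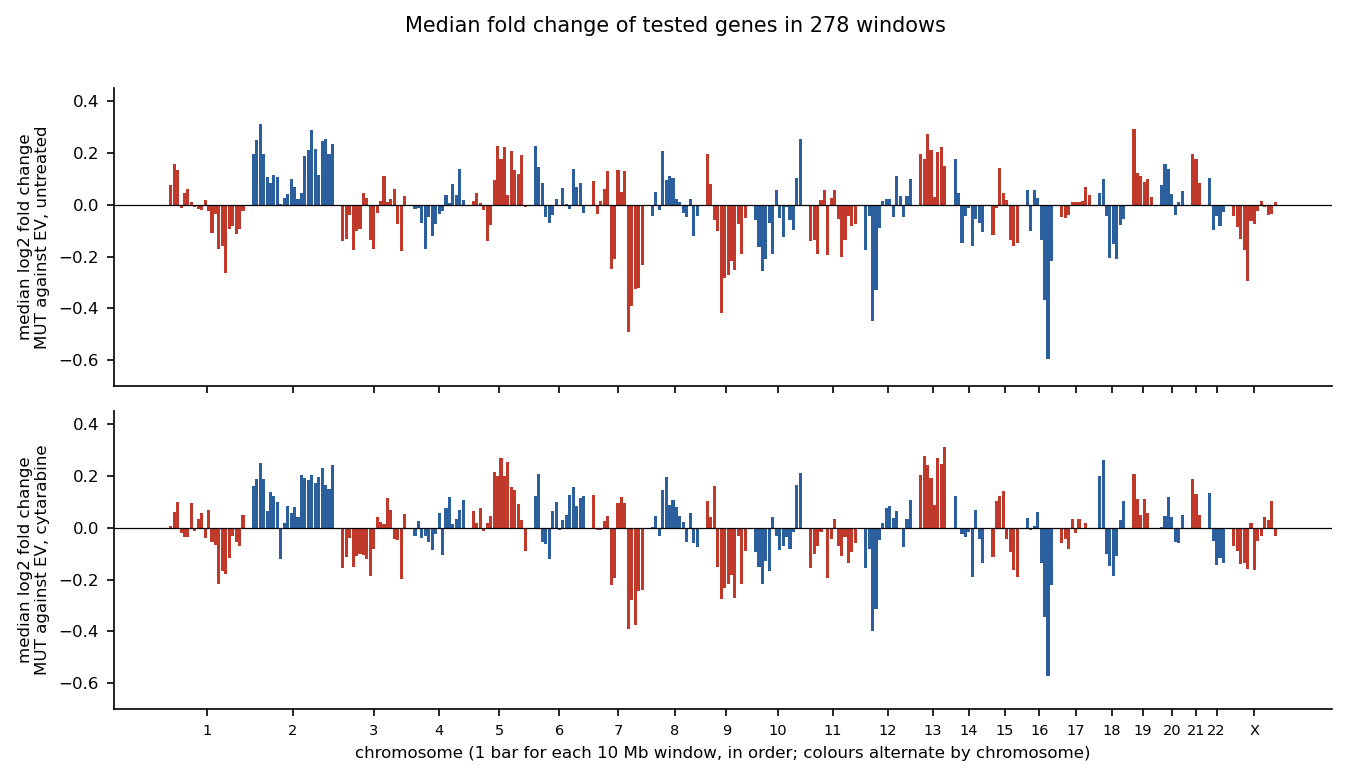
Median log2 fold change of MUT against EV (vertical axis) in 278 windows of 10 Mb, 1 bar for each window in order along the chromosomes (horizontal axis), untreated above and with cytarabine below. Low windows on chromosomes 7, 9, 12 and 16 and high windows on chromosomes 2 and 13 stand at the same places in both panels, with the lowest at -0.60 untreated and -0.57 treated.

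Windows with a median at least 0.2 from 0 numbered 43, and each had the same sign in the treated libraries. Treated medians ran from 0.12 to 0.27 in the high windows and from -0.57 to -0.11 in the low ones. The windows were chosen by their untreated medians, so an excess of untreated calls in that direction follows from the choice. The counts of calls below are descriptions only. The 24 low windows held 1168 tested genes, of which 398 (34.1%) were lower and 16 (1.37%) higher. The 19 high windows held 1083 genes, of which 327 (30.2%) were higher and 21 (1.94%) lower. In the other 235 windows 9.15% were higher and 8.83% lower. Across the 278 windows, which share the cell lines but no library, Pearson's r between the untreated and the treated medians was 0.88 and Spearman's rho 0.847. By whole chromosome, 19.4% of genes on chromosome 2, 21.2% on chromosome 13 and 20.4% on chromosome 19 were higher, and 21.7% on chromosome 9 and 19.3% on chromosome 16 were lower. CTCFL, KRT75, RBFOX3, GATA6 and CADM1 lay in windows with medians between -0.04 and 0.07. Some other named falls lay in lower windows, CPED1 in one with a median of -0.39 and DDR2, COL8A1 and GALNT15 in windows at -0.17, -0.14 and -0.13. LINC01694, LINC00665 and AL161431.1 fell in windows with higher medians, at 0.085, 0.089 and 0.22. RRAD rose in a window on chromosome 16 with a median of -0.37. Copy number was not measured, so whether these blocks follow the number of gene copies in each line was not tested.

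Markers of cell types were checked against the labelled osteosarcoma line. Mesenchymal markers summed to 3736 to 3814 CPM in EV and 3844 to 4215 CPM in MUT, and none of 9 in the table was at 0. Of these RUNX2, ALPL and FN1 fell by 0.35, 0.57 and 0.50. The call of RUNX2 was lost without any 1 library except MUT replicate 3, that of ALPL without EV replicate 1 and that of FN1 without EV replicate 2 or EV replicate 3. Epithelial markers summed to 804 to 830.4 CPM in EV and 718 to 1003 CPM in MUT, with ESRP1 at 0 in MUT. Of 7 tested, CDH1 fell by 1.70 and CLDN4 rose by 0.41, the latter called without MUT replicate 1 and in no other fit that left out 1 library. Of the blood markers GATA1 was at 0 in EV, and of the endothelial markers KDR was at 0 in MUT. Blood markers summed to 29.3 to 33.2 CPM in EV and 24.5 to 36.5 CPM in MUT. Endothelial markers summed to 4.85 to 6.03 CPM in EV and 6.91 to 7.99 CPM in MUT, without overlap. No gene of either list was called by edgeR in the untreated libraries, where 1 blood marker was lower and 1 endothelial marker higher at an unadjusted p under 0.05, whereas 3 of 5 endothelial markers were called higher in MUT with cytarabine. Neuronal and glial markers summed to 21.6 to 25 CPM in EV and 10.0 to 12 CPM in MUT, with STMN2 at 0 in EV and SOX10 at 0 in MUT. Of 6 tested, RBFOX3, SYP and ELAVL4 fell, the latter 2 by 0.80 and 2.44, and GFAP rose by 1.14 but missed the threshold without EV replicate 1 (0.78) or EV replicate 3 (1.16). In bulk RNA fewer cells of a type and less RNA in each cell cannot be told apart, and the part of this marker difference in the other results was not tested.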

How the data were processed

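Total RNA of U2OS cells was sequenced in 18 libraries, 3 for each of 6 groups, and 6 libraries enter the comparison. Per the submitters' processing notes, reads were handled with CASAVA and STAR 2.6.1d on hg38. The tool and annotation used for counting, the strand setting and the treatment of multiply placed reads are not given in the sources used here. The authors deposited estimated counts for 25296 genes, of which 70.4% of the values were whole, and they were rounded here. A second deposited table of 19591 genes holds a signal equal to 1 plus a scaled count, and it was used only for the authors' scaling factors. In the symbols, 26 had been turned into dates and were not restored.

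Genes were filtered with filterByExpr and scaled with TMM, and all 6 groups were fitted together in edgeR 4.0.16 with limma 3.58.1 in R 4.3.3, by the quasi-likelihood test with Benjamini-Hochberg adjustment at 0.05. Each SE was obtained from the log2 fold change and the F statistic, as its size over the root of F. Levels are CPM, and single-library differences use log2 CPM with a prior count of 2. Named genes were the introduced gene, the 12 largest rises and 12 largest falls called at a mean log2 CPM of at least 1, and the 5 of each at a mean of at least 6. These rises and falls were taken only from genes whose untreated MUT and EV libraries did not overlap, so their separation follows from the choice. Up to 4 members of each list were also named, with further genes chosen after their values were seen. A few genes that this rule names are not reported here. The members and lists were chosen with earlier results of these data known. Gene lengths came from GENCODE by symbol, for 88.2% of tested genes. Start regions came from RefSeq (GRCh38.p14).

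Alternatives were DESeq2 1.42.0 and its size factors, upper-quartile factors, voom with library quality weights, the compared libraries alone, other count filters, a minimum log2 fold change of 1, a replicate block and leaving out each library. The authors' factors, leaving out processed pseudogenes and the length offset were chosen after seeing the data. The fitting code was tested on simulated data with the same spread in every group. That test therefore does not cover the larger spread of the untreated MUT libraries. Libraries of 17.1 to 21.4 M counts limit what can be seen for genes of a few counts. The p-values measure the spread between cultures of 1 line per construct, estimated over all 6 groups together. The common biological coefficient of variation of that fit was 0.104, against 0.215 in untreated MUT and 0.0397 in untreated EV. The p-values of untreated MUT against EV therefore do not carry the full spread of the untreated MUT libraries.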

Additional observations from a re-analysis of the deposited data

Results flagged for a closer look

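For 7 named genes the difference between MUT and EV was not the same with and without cytarabine, by the test of that difference in edgeR's quasi-likelihood fit with Benjamini-Hochberg adjustment. The value given is the log2 fold change with cytarabine minus that without it. DDR2 gave 1.55 (SE 0.173, adjusted p 5.5e-04), and it passed under all 24 alternatives. Its treated levels were 36.0, 45.9 and 43.8 CPM in EV and 15.9, 19.3 and 17.8 CPM in MUT, so it was lower in MUT under both conditions. GOLGA8IP gave 1.65 (SE 0.222, adjusted p 0.0031) and RRAD -1.76 (SE 0.253, adjusted p 0.0044), and both missed the threshold only in the fit of the 12 libraries concerned (adjusted p 0.0632 for each). RRAD held 5.82, 4.62 and 4.70 CPM in treated EV and 7.56, 7.52 and 7.06 CPM in treated MUT.

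The calls of the other 4 were lost in the fit of 12 libraries and without some single libraries. MMP13 gave 1.69 (SE 0.332, adjusted p 0.038) and was lost under 12 of 24 alternatives, 8 of them without 1 library (without any untreated EV or treated MUT library, or treated EV replicate 1 or 3), with values from 1.52 to 1.85 over the fits without 1 library. NRP1 gave 0.75 (SE 0.122, adjusted p 0.017) and was lost without untreated EV replicate 3 or treated MUT replicate 3, with values from 0.64 to 0.82. TNFRSF11B gave 0.75 (SE 0.124, adjusted p 0.017) and was lost without untreated EV replicate 1, untreated EV replicate 3 or treated MUT replicate 3, with values from 0.61 to 0.80. CCNB1 gave -0.53 (SE 0.0963, adjusted p 0.025) and was lost without any untreated EV library, treated EV replicate 1, treated MUT replicate 2 or treated MUT replicate 3, with values from -0.57 to -0.44.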

How the results depend on the processing

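The number of genes called between untreated MUT and EV was 3632, with 1801 higher and 1831 lower. A fit of the 6 libraries alone gave 935 (415 higher, 520 lower), and a minimum log2 fold change of 1 gave 476 (189 and 287). Leaving out 1 library gave 2253 to 4386 genes (1043 to 2449 higher, 1210 to 1937 lower), with 2253 without EV replicate 3, and 1176 higher without EV replicate 2. With cytarabine the count of 2548 became 4662 under voom with quality weights, 285 at a fold change of 1, and 1539 to 2051 without 1 library, the lowest without MUT replicate 3. MUT against WT gave 1171 with its 6 libraries alone and 634 at a fold change of 1. The cause was not tested. Single genes were followed under the alternatives only for the 169 chosen ones counted below. Of these, DNMT1, UHRF1, TET1, TET2, TET3 and RPLP2 were not called, and 4 of them changed sign without 1 library. DNMT1 ran from -0.19 to 0.016 (the latter without MUT replicate 3), TET2 from -0.32 to 0.10 (without MUT replicate 3), RPLP2 from -0.28 to 0.067 (without MUT replicate 2) and UHRF1 from -0.11 (without MUT replicate 1) to 0.14, with -0.0088 without EV replicate 1. Of 2849 values for 169 genes under the alternatives, 2596 kept direction and side of the threshold, 244 no longer passed, 4 newly passed and 5 changed sign. The minimum log2 fold change of 1, which ends every call of a smaller change, was left out of this count. A replicate block gave 3575 called genes. Same-numbered libraries correlated at -0.18, 0.04 and -0.07 in their deviations, so the numbers were not taken as pairs.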
